A study of Mus musculus with 39 samples.

Results

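The proteasome is the protease complex that degrades most ubiquitin-tagged proteins of the cell. Its genes were taken as all mouse genes whose symbol begins with Psma, Psmb, Psmc, Psmd or Psme followed by a digit, each read from the brightest array probe with a RefSeq accession. Of 52 symbols of the RefSeq table that fit this rule, 44 had a probe, among 18259 genes measured in all. The 8 without a probe were Psma8, Psme2b and 6 pseudogenes. Of the 44, 42 code for subunits, assembly factors or activators of the complex. Psmc3ip and Psme3ip1 are named for a protein that their product binds and are not subunits.

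Liver RNA of 39 male C57BL/6J mice was measured, each on 1 array. Aggressor-exposed mice (AggE) were placed daily in the cage of a trained SJL aggressor mouse for a regimen of 5 or 10 days, and control mice (Ctrl) had sham sessions without an aggressor. Livers were taken 24 hrs after the 5-day (point 5d/24h) and the 10-day regimen (10d/24h; 5 AggE and 4 Ctrl mice each), 1.5 wks after the 5-day regimen (5d/1.5wk; 5 AggE and 4 Ctrl mice) and 4 wks after the 10-day regimen (10d/4wk; 6 AggE and 6 Ctrl mice). The mice were 5 to 6 weeks old when bought and lived singly. Ctrl mice went through the same food deprivation as AggE mice, and a partition test across from an aggressor came shortly before the tissue was collected, so each comparison is of exposure on top of these. The unit is log2(Cy5/Cy3), the liver signal over that of 1 common reference RNA on the same array, and a difference of 1 on this scale is 2-fold. In whole liver, fewer cells of a type and less RNA per cell cannot be told apart.

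The barrel of the complex, the 20S core, stacks rings of alpha subunits (Psma genes) around rings of beta subunits (Psmb genes), and Psmb5, Psmb6 and Psmb7 carry the proteolytic sites. Under interferon these are replaced by Psmb8, Psmb9 and Psmb10, which form the immunoproteasome and favor the cuts that make peptides for MHC class I. The 19S cap, made of a base with ATPases (Psmc genes) and a lid, recognizes, unfolds and feeds the substrate. Psmd genes code for lid subunits, other base subunits and assembly chaperones. The PA28 caps (Psme1 to Psme3) open the core without ubiquitin. Transcription of most subunit genes is raised together by NRF1 (Nfe2l1) when proteasome activity falls short.

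The arrays differed in signal. Between 15.2% and 70.4% of the probes were well above background in Cy5 per array, with 15.7% to 28.2% in AggE and 25.3% to 31.0% in Ctrl mice at 5d/24h. Of the 44 genes, 29 were well above background on all 39 arrays and 41 on at least 30. The exceptions were Psmb11, the thymus subunit, on 4 arrays, Psmc3ip on 10 and Psmd13 on 23. No spot used for the 44 genes was saturated. AggE and Ctrl mice shared no slide at either 24-hr point, so that slide and exposure cannot be told apart there. AggE mouse 1 at 10d/4wk stood apart from the other 5 AggE mice of that point in 12 of the 44 genes (Dixon's test at its 95% critical value). For some of these genes the difference is also given without it. All 7 measured hepatocyte markers were well above background on every array.

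The intervals of the single genes were read first. At each of the 4 points, the 95% interval of the AggE-minus-Ctrl difference lay inside a 2-fold change in either direction for all 44 genes. It lay inside 1.5-fold for 41 genes at 5d/24h, 41 at 10d/24h, 42 at 5d/1.5wk and 36 at 10d/4wk. These counts include the genes seldom above background, and the same share over all genes was not computed. The fit takes arrays as independent, while arrays of the same slide correlated at 0.324 (limma's consensus over all probes). The intervals leave this out and can be too narrow, above all at the 24-hr points, where slide and exposure coincide. The median difference over the 44 genes was 0.08 (5d/24h), -0.04 (10d/24h), 0.05 (5d/1.5wk) and 0.00 (10d/4wk), beside 0.00, -0.00, -0.00 and 0.01 over all genes. No fit of whole lists was made, and these are descriptions of the list.

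Psmd12 at 10d/4wk was the only call of the 4 comparisons at an adjusted p of 0.05 or less (limma, Benjamini-Hochberg over all 25903 probes), with 0 calls at the other 3 points. At the same threshold, 3.64%, 0.0986%, 0% and 3.66% of all genes were called at the 4 points in that order. At a nominal p (before adjustment) of 0.05 or less, 1 gene was higher and 2 were lower in AggE at 5d/24h, beside 8.09% higher and 9.1% lower of all genes. The counts were 1 higher and 1 lower at 10d/24h, beside 1.66% and 1.3%. They were 1 higher and 0 lower at 5d/1.5wk, beside 1.45% and 0.991%, and 10 higher and 6 lower at 10d/4wk, beside 10% and 11.8%. The plot of all differences shows this contrast between the points.

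**Figure D1:**
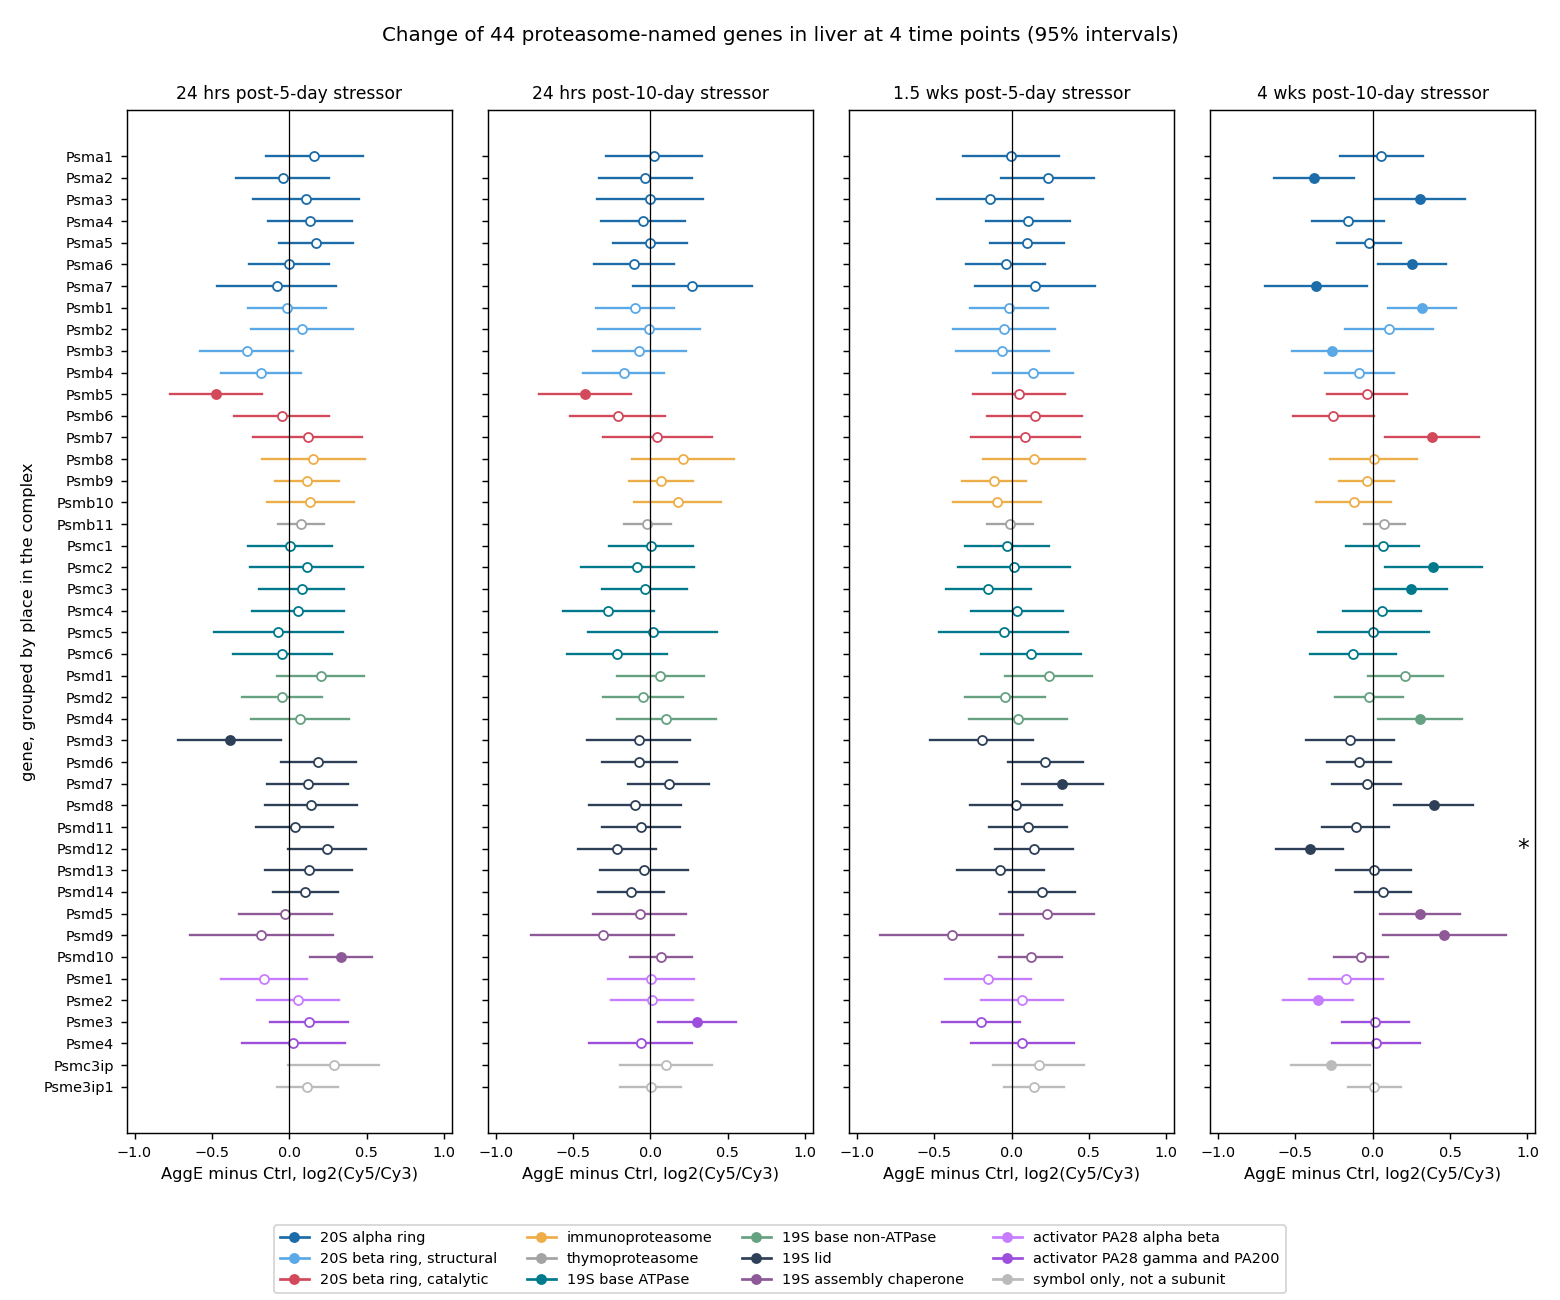
The difference of AggE minus Ctrl in log2(Cy5/Cy3) for each of the 44 genes (rows, colored by place in the complex) at the 4 points (panels), with the limma 95% interval as a line. Filled circles are genes at a nominal p of 0.05 or less, 3, 2, 1 and 16 of 44 from left to right, and the asterisk is the 1 call at an adjusted p of 0.05 or less, Psmd12 at 10d/4wk.

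Groups of mice without overlap were few. AggE and Ctrl mice did not overlap in 2 of 44 genes at 5d/24h (Psmb4 and Psmb5; 7.78% of all genes), in 0 at 10d/24h (1.87%), in 1 at 5d/1.5wk (Psmd9; 0.849%) and in 1 at 10d/4wk (Psmb1; 1.73%). Psmd9, an assembly chaperone of the 19S base, lay between -0.02 and 0.22 in AggE and between 0.45 and 0.56 in Ctrl mice at 5d/1.5wk, a difference of -0.39 (SE 0.23, limma adjusted p = 1). Its second probe differed by 0.08 at that point.

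Of the 3 constitutive catalytic subunits, Psmb5, the chymotrypsin-like site, was lower in AggE mice at both 24-hr points without passing the adjusted test. At 5d/24h it read -0.20, -0.50, -0.70, -0.54 and -0.77 in the 5 AggE mice and -0.01, -0.00, -0.09 and -0.17 in the 4 Ctrl mice. All 5 AggE mice were below all 4 Ctrl mice. The difference was -0.47 (SE 0.15, 95% interval -0.77 to -0.18, 0.72-fold), with a limma adjusted p of 0.0605. Leaving out 1 mouse of the point at a time, it ran from -0.56 to -0.42 with adjusted p-values from 0.0314 to 0.146, and it passed only without AggE mouse 1. At 10d/24h the AggE mice read -0.58, -0.39, -0.61, -0.38 and -0.89 and the Ctrl mice 0.01, -0.44, -0.10 and -0.06. Here 3 of 5 AggE mice lay below every Ctrl mouse, and the difference was -0.42 (SE 0.15, limma adjusted p = 1). The gene has a single probe on the array, and slide and exposure cannot be told apart at either point.

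At the later points the groups lay closer together. At 5d/1.5wk the AggE mice read -0.04, -0.54, -0.23, -0.48 and -0.66 and the Ctrl mice -0.42, -0.17, -0.50 and -0.66, and the groups overlapped fully. At 10d/4wk the lowest, median and highest AggE values were -1.02, -0.59 and -0.40, against -0.88, -0.60 and -0.11 in Ctrl. The differences were 0.05 (95% interval -0.25 to 0.35) and -0.04 (-0.29 to 0.22). Ctrl means moved between the points as well, from -0.07 (5d/24h) and -0.14 (10d/24h) to -0.44 (5d/1.5wk) and -0.60 (10d/4wk), while AggE means ran from -0.63 to -0.39. The 5d/24h change less the 5d/1.5wk change was -0.52 (SE 0.21, limma adjusted p = 0.491), so a difference between the points did not pass the adjusted test.

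The 250 bases before the RefSeq start of Psmb5 are shown, since it held the lowest difference at both 24-hr points. Capitals mark matches to the 4 motifs searched on both strands over this stretch, namely TGACNNNGC (the core of the antioxidant response element, which NRF1 and NRF2 bind), TTCNNNGAA (the gamma-activated site), AAANNGAAA (the core of the interferon-stimulated response element) and CCAAT. Coordinates are of build GRCm38.p6.
Psmb5, chr14:54617996-54618245, minus strand: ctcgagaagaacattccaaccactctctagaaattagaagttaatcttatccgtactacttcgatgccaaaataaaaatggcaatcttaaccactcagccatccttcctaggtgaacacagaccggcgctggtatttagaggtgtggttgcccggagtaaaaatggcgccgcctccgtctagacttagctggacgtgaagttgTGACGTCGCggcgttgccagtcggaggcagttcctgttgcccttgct
The match of Psmb5 is to TGACNNNGC and begins 47 bases before the start. Of 38 members with a promoter in the RefSeq table, 5 (13.2%) held this motif, Psmb5, Psmb6, Psmc6, Psmd9 and Psmd12, beside 3112 of 27025 genes in all. A match is a stretch of letters and no evidence of binding.

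Psmb6, the caspase-like site, and Psmb7, the trypsin-like site, passed no adjusted test at any point in the fit without a slide block. On the 10d/4wk slide with both groups, the 1 AggE mouse differed from the 3 Ctrl mice by -0.63 (Psmb6) and 0.63 (Psmb7). Psmb6 read -0.30, -0.36, -0.32, -0.34 and -0.47 in AggE and -0.10, -0.51, -0.65 and 0.02 in Ctrl mice at 5d/24h, where the AggE values lay inside the Ctrl range. At 10d/24h it read -0.46, -0.67, -0.42, -0.48 and -0.79 against -0.23, -0.66, -0.32 and -0.20, a difference of -0.21 (SE 0.15, limma adjusted p = 1). At 5d/1.5wk it read 0.18, -0.07, 0.12, -0.16 and -0.10 against -0.29, -0.18, 0.16 and -0.30. The groups overlapped at every point. At 10d/4wk the AggE mice ran from -1.15 through a median of -0.58 to -0.32 and the Ctrl mice from -0.75 through -0.28 to -0.03 (difference -0.25, limma adjusted p = 0.266). Without AggE mouse 1, the lowest at -1.15, the difference was -0.15.

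Psmb7 read -0.14, -0.11, -0.12, -0.35 and -0.49 in AggE and -0.48, -0.27, 0.00 and -0.70 in Ctrl mice at 5d/24h. At 10d/24h the values were -0.25, 0.16, -0.04, -0.23 and -0.54 against -0.12, -0.13, -0.18 and -0.46, with the Ctrl mice inside the AggE range. The probe was dimmest against the reference at 5d/1.5wk in both groups, at -0.72, -1.41, -0.79, -0.78 and -0.86 in AggE and -0.63, -1.20, -0.92 and -1.25 in Ctrl. At 10d/4wk Psmb7 was higher in AggE, with a lowest, median and highest of -0.67, -0.20 and 0.29 against -0.98, -0.53 and -0.32. That difference was 0.38 (SE 0.15, limma adjusted p = 0.14), opposite in sign to those of Psmb5 and Psmb6 at the same point. Without AggE mouse 1 the differences were 0.28 (Psmb7), 0.04 (Psmb5) and -0.15 (Psmb6), so Psmb5 no longer had the opposite sign.

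**Figure D2:**
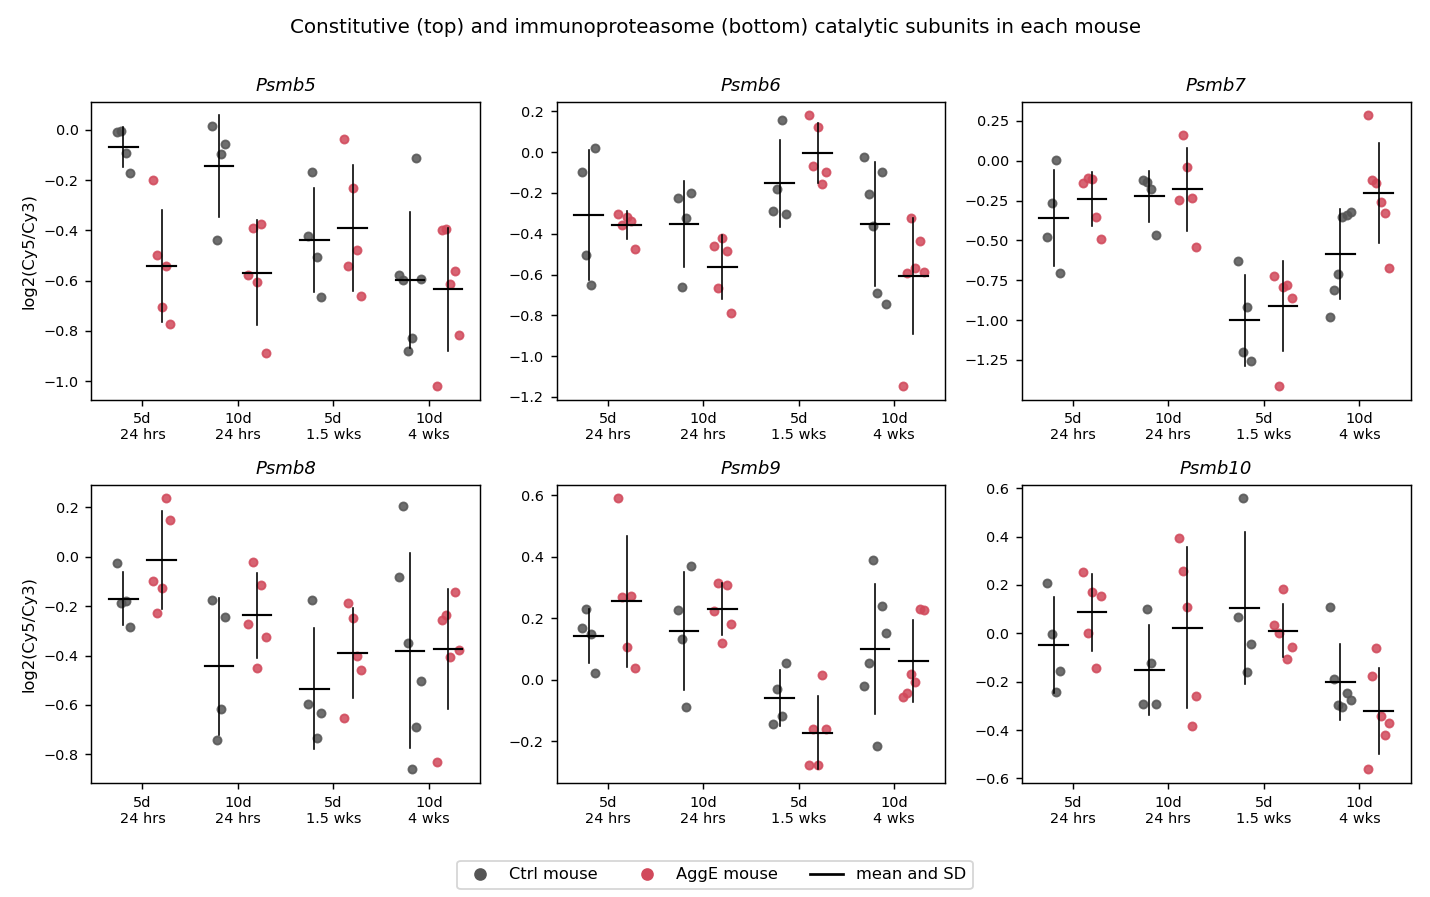
log2(Cy5/Cy3) of the catalytic subunits in each mouse, with group means (horizontal bars) and SD (vertical bars), Ctrl in grey and AggE in red, at the 4 points along the horizontal axis. The 5 AggE mice lie below the 4 Ctrl mice in Psmb5 at 5d/24h, and Psmb8, Psmb9 and Psmb10 overlap between the groups at every point.

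The immunoproteasome was set apart because interferon controls it. On the brightest probe, none of its 3 genes passed the test at any point, adjusted or not, and AggE and Ctrl mice overlapped in all 12 comparisons. Psmb8, which takes the place of Psmb5, read -0.10, -0.23, -0.13, 0.24 and 0.15 in AggE and -0.02, -0.19, -0.18 and -0.29 in Ctrl mice at 5d/24h, a difference of 0.16 (95% interval -0.17 to 0.49). At 10d/24h it read -0.27, -0.02, -0.45, -0.11 and -0.33 against -0.17, -0.74, -0.62 and -0.24, a difference of 0.21 (-0.12 to 0.54). The second probe of Psmb8, nearly as bright and well above background on 38 arrays, was higher there by 0.37 (SE 0.13), at a nominal p of 0.05 or less but a limma adjusted p of 1, and it differed by 0.25 (SE 0.13) at 5d/24h. At 5d/1.5wk the brightest probe of Psmb8 read -0.65, -0.19, -0.25, -0.40 and -0.46 against -0.59, -0.18, -0.73 and -0.63. On the same probe the Ctrl mice at 10d/4wk ran from -0.86 to 0.20 with a median of -0.43, and the AggE mice ran from -0.83 to -0.14 with a median of -0.32. The difference there was 0.01 (-0.28 to 0.29).

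Psmb9, which takes the place of Psmb6, read 0.59, 0.27, 0.11, 0.27 and 0.04 in AggE and 0.17, 0.23, 0.15 and 0.02 in Ctrl mice at 5d/24h. At 10d/24h it read 0.22, 0.32, 0.12, 0.31 and 0.18 against 0.23, 0.13, -0.09 and 0.37. At 5d/1.5wk both groups were lower, at -0.28, -0.16, -0.28, 0.02 and -0.16 in AggE and -0.14, -0.03, -0.12 and 0.06 in Ctrl. Its 4 differences were 0.11, 0.07, -0.11 and -0.04, and the groups overlapped at each point. At 10d/4wk the lowest, median and highest were -0.06, 0.01 and 0.23 in AggE and -0.22, 0.10 and 0.39 in Ctrl.

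Psmb10, which takes the place of Psmb7, read 0.25, 0.00, 0.17, -0.15 and 0.15 in AggE and 0.21, -0.00, -0.24 and -0.16 in Ctrl mice at 5d/24h. At 10d/24h the AggE mice parted widely, at 0.39, 0.26, 0.11, -0.39 and -0.26, against -0.29, 0.10, -0.12 and -0.29 in Ctrl. At 5d/1.5wk it read 0.03, 0.00, 0.18, -0.11 and -0.06 against 0.07, 0.56, -0.16 and -0.05. The 4 differences of Psmb10 were 0.13, 0.18, -0.09 and -0.12, each with an interval that included 0. At 10d/4wk the AggE mice ran from -0.56 through -0.36 to -0.06 and the Ctrl mice from -0.31 through -0.26 to 0.11.

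Of the 3 immunoproteasome genes, Psmb8 alone held TTCNNNGAA in the 250 bases before its start, a motif found in 8.13% of all genes, and it is shown as the 1 interferon-type match among them.
Psmb8, chr17:34197945-34198194, plus strand: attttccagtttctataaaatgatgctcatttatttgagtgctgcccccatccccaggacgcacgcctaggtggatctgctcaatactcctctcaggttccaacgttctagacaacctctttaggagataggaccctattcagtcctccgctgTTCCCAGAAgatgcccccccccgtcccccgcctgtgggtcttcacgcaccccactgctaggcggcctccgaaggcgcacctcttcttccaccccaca
AAANNGAAA was in none of the 3 and in 10.5% of all 38 members with a promoter, beside 10.8% of genes in all.

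The lists around the immunoproteasome held no adjusted call. Of 8 measured genes of MHC class I presentation, 1 was higher at a nominal p of 0.05 or less at 5d/24h and 2 were higher at 10d/4wk, with 0 at an adjusted p of 0.05 or less at any point. B2m, the light chain of MHC class I, was the one nearest to a call (0.48 at 10d/4wk, limma adjusted p = 0.0704). Of 10 interferon-response genes, 1 was lower at 5d/24h and 3 were lower at 10d/4wk at a nominal p of 0.05 or less, with 0 at the adjusted threshold. Of 16 leukocyte markers, 0 passed the adjusted threshold at any point (limma), and at a nominal p of 0.05 or less 1 was higher and 2 were lower at 5d/24h, 0 at 10d/24h and 5d/1.5wk, and 1 was higher and 4 were lower at 10d/4wk. Many of these probes were dim. At 5d/24h, 9 (AggE) and 10 (Ctrl) of the 16 were well above background on no array of the group. The counts were 8 and 7 at 10d/24h, 6 and 8 at 5d/1.5wk, and 2 and 0 at 10d/4wk. A lack of calls in such probes says little. Of 8 Kupffer cell markers, all 8 were higher in AggE at 10d/24h, 3 of them at a nominal p of 0.05 or less and 0 at the adjusted threshold. At a nominal p of 0.05 or less 1 was higher at 5d/24h, 0 were called at 5d/1.5wk and 2 were lower at 10d/4wk. The mean log2 ratio of the Kupffer list was 1.68 to 1.98 in AggE and 1.01 to 1.68 in Ctrl mice at 10d/24h, with medians of 1.76 and 1.55 at 5d/24h, 0.857 and 0.709 at 5d/1.5wk, and 1.40 and 1.62 at 10d/4wk. Its part in the values of the proteasome genes was not tested.

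The alpha ring, which gates the core, showed no call at the first 3 points. At 10d/4wk, of 7 genes, Psma3 and Psma6 were higher and Psma2 and Psma7 were lower at a nominal p of 0.05 or less. Psma2 in AggE mice ran from -1.41 through a median of -1.24 to -0.56, and in Ctrl mice from -1.25 through -0.81 to -0.41. Its difference was -0.38 (SE 0.13, limma adjusted p = 0.0877). AggE mouse 1 lay at -0.56 and the other 5 between -1.41 and -1.14, and the groups overlapped. Without mouse 1 the difference was -0.50 (adjusted p = 0.0071), and against the 3 Ctrl mice of its own slide mouse 1 was higher by 0.16. Of the 4 structural beta genes, Psmb1 was higher (0.32, SE 0.11, limma adjusted p = 0.0886), from -1.78 to -1.37 in AggE and from -2.12 to -1.80 in Ctrl mice, so that all 6 AggE mice were above all 6 Ctrl mice. Psmb3 was lower (-0.26, limma adjusted p = 0.242).

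In the 19S cap, Psmd3, a lid subunit, was lower in AggE at 5d/24h. It read -1.44, -1.38, -1.52, -1.24 and -1.43 in AggE and -0.78, -0.93, -0.93 and -1.44 in Ctrl mice, where Ctrl mouse 4 lay among the AggE mice. The difference was -0.38 (SE 0.16, limma adjusted p = 0.195). Psmd10 (gankyrin), a chaperone of cap assembly, was higher at the same point, at 0.59, 0.47, 0.45, -0.07 and 0.29 against -0.16, 0.05, 0.13 and 0.02. Of the 5 AggE mice, 4 were above every Ctrl mouse, and the difference was 0.34 (SE 0.10, limma adjusted p = 0.0507). Leaving out 1 mouse at a time, it ran from 0.27 to 0.44 with adjusted p-values from 0.00419 to 0.193, and it passed only without AggE mouse 4, the lowest of the exposed mice. The fourth smallest p at this point was that of Psmc3ip, a recombination factor, at -0.05, -0.25, 0.04, -0.45 and -0.81 against -0.52, -0.37, -0.77 and -0.71, where the groups overlapped. Psmd10 was well above background on 33 of the 39 arrays, with 8 of the 9 at this point.

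At 10d/24h, the smallest p-values after that of Psmb5 were those of Psme3, Psmc4 and Psmd12. Psme3 (PA28 gamma), the nuclear activator, read 0.26, 0.08, -0.22, 0.08 and -0.27 in AggE and -0.18, -0.40, -0.26 and -0.43 in Ctrl mice, a difference of 0.30 (SE 0.12, limma adjusted p = 1). All 5 AggE mice were above the Ctrl mean, and 3 were above every Ctrl mouse. Psmc4, an ATPase of the base, read -0.34, -0.10, -0.32, -0.16 and -0.35 against 0.22, 0.04, 0.12 and -0.31. Psmd12 read -1.07, -1.29, -1.11, -1.11 and -1.09 against -0.75, -0.79, -1.06 and -1.08. Neither of these passed at a nominal p of 0.05.

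At 5d/1.5wk the 4 smallest p-values were those of 3 lid subunits, Psmd7, Psmd14 and Psmd6, and of Psmd1 in the base, all higher in AggE. Psmd7 read -0.15, -0.92, -0.58, -0.22 and -0.66 in AggE and -0.76, -0.68, -0.84 and -1.04 in Ctrl mice. The difference was 0.33 (SE 0.13, limma adjusted p = 1), and 4 of 5 AggE mice were above every Ctrl mouse. At this point 1 AggE array shared a slide with 3 Ctrl arrays, and the difference on that slide was 0.10. It was 0.36 among the 4 AggE and 3 Ctrl arrays of the first scan day and 0.12 between the 1 AggE and 1 Ctrl array of the second. Psmd14, the deubiquitinase of the lid, read -1.77, -1.92, -1.95, -1.69 and -1.82 against -1.93, -2.06, -2.00 and -2.11. Psmd6 read -0.77, -0.98, -0.79, -0.71 and -1.03 against -0.89, -1.01, -1.17 and -1.23. Psmd1 read 0.03, -0.45, -0.21, 0.07 and -0.28 against -0.27, -0.18, -0.63 and -0.55. For these last 3 the groups overlapped and the nominal p was above 0.05.

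The call at 10d/4wk was Psmd12, a scaffold subunit of the lid. In AggE mice it ran from -1.17 through a median of -0.99 to -0.46, and in Ctrl mice from -0.72 through -0.62 to -0.24. The difference was -0.41 (SE 0.11, 95% interval -0.62 to -0.19, 0.755-fold), with a limma adjusted p of 0.0342, and 5 of 6 AggE mice were below every Ctrl mouse. AggE mouse 1, at -0.46, was the exception, and it was the 1 AggE mouse whose array shared a slide with Ctrl arrays. Against the 3 Ctrl mice of that slide (-0.24, -0.26 and -0.66) its difference was -0.08. Leaving out 1 mouse of the point at a time, the limma adjusted p ran from 0.00229 to 0.0939 and was above 0.05 in most fits.

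The fall of Psmd12 rested on the brightest of its 3 probes. The other probes differed by 0.10 (SE 0.13, limma adjusted p = 0.726) and 0.19 (SE 0.16, limma adjusted p = 0.553), with the opposite sign. They were well above background on 30 and 33 arrays, with mean Cy5 intensities of 54.9 and 54.4 against 565 for the brightest. The mean over the 3 probes gave -0.04 with an adjusted p of 0.777. With slide as a fixed block the brightest probe gave -0.08. That fit is no separate check, since it rests on AggE mouse 1 against the 3 Ctrl mice of its slide. With slide as a random block the brightest probe gave -0.31 (limma adjusted p = 0.225).

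At the other points the brightest probe differed by 0.24 (5d/24h), -0.21 (10d/24h) and 0.15 (5d/1.5wk), none with a nominal p of 0.05 or less. At 5d/24h the second probe went the other way, by -0.36 (SE 0.15, limma adjusted p = 0.16, nominal p of 0.05 or less), and on it all 5 AggE mice were below all 4 Ctrl mice.

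**Figure D3:**
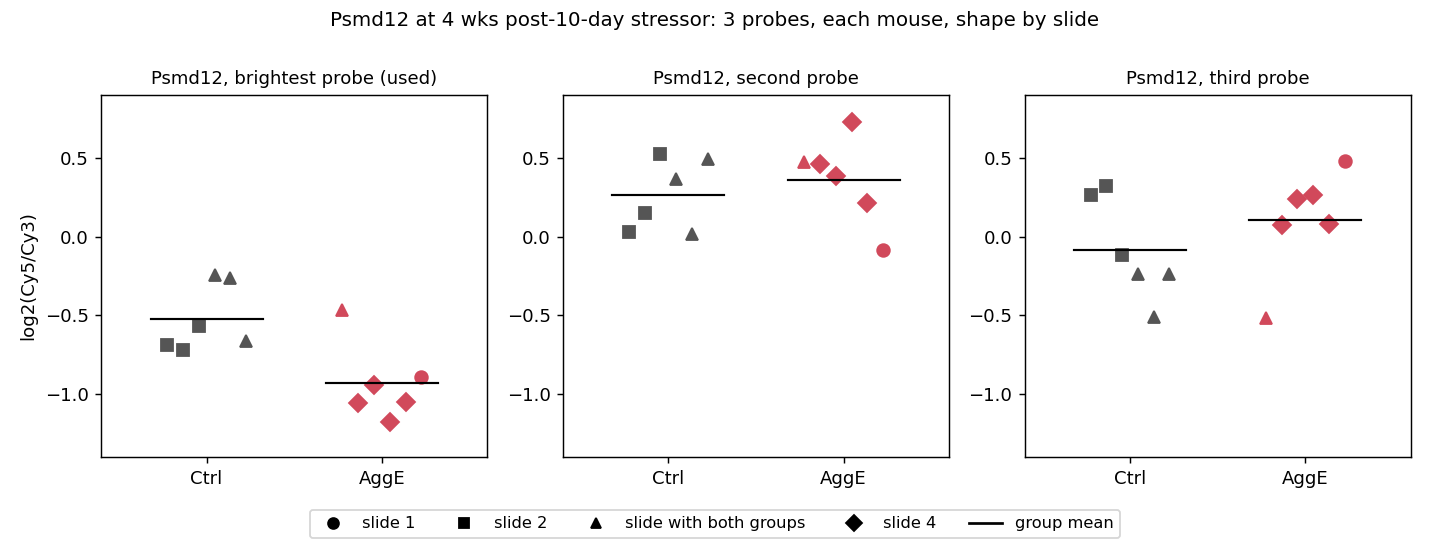
log2(Cy5/Cy3) of the 3 probes of Psmd12 (panels, brightest first) in each of the 6 Ctrl (grey) and 6 AggE (red) mice at 10d/4wk, with the array's slide as the shape of the point and the group mean as a bar. In the brightest probe 5 AggE mice lie below all Ctrl mice, the AggE mouse on the slide with both groups lies among the Ctrl mice, and the other 2 probes do not separate the groups.

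The stretch before the start of Psmd12 is printed as that of the 1 called gene, with the same marking. Its match to TGACNNNGC, on the opposite strand, begins at the far end, 247 bases before the start.
Psmd12, chr11:107479278-107479527, plus strand: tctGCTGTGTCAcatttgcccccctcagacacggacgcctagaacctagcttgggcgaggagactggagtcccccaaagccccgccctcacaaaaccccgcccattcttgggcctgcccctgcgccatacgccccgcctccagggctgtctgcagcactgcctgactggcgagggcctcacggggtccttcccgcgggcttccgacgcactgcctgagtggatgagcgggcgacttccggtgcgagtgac

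Apart from Psmd12, the genes of the cap at a nominal p of 0.05 or less at 10d/4wk were all higher in AggE. Psmd8, also of the lid, was higher in AggE, from -0.82 through a median of -0.34 to -0.27, against -1.12, -0.87 and -0.38 in Ctrl (difference 0.39, SE 0.13, limma adjusted p = 0.0722). In the base, Psmc2 (0.39), Psmc3 (0.25) and Psmd4 (0.31), the last a ubiquitin receptor, were higher at a nominal p of 0.05 or less. The chaperones Psmd5 (0.31) and Psmd9 (0.46) were higher too. AggE mouse 1 read -1.25 for Psmd9 while the other 5 AggE mice read 0.31 to 0.61, and without it the difference was 0.75. For Psmc2 it read -2.39 against -1.30 to -0.95 in the other 5, and without it the difference was 0.60. That of Psmd4 was 0.43 without it. Psmc3ip, which is not a subunit, was lower (-0.27). Against the Ctrl mice of the shared slide, AggE mouse 1 had the same sign as the whole comparison in 11 of the 16 genes at a nominal p of 0.05 or less. The sign was the opposite for Psmd9 (-0.74), Psmc2 (-0.53), Psmd4 (-0.21), Psma2 (0.16) and Psma7 (0.06). Without AggE mouse 1, 8 genes passed the adjusted threshold in place of 1, 4 higher (Psmc2, Psmd4, Psmd8 and Psmd9) and 4 lower (Psma2, Psma7, Psmd12 and Psme2). This was 18.2% of the 44 genes, beside 9.32% of all genes called in the same fit. Mouse 1 was singled out by its values in these same 44 genes, so these shares cannot be compared. Of the 8, 5 are the genes whose sign was the opposite on the shared slide. Leaving out this mouse widens their difference by construction.

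The PA28 alpha and beta genes, Psme1 and Psme2, form the activator that interferon raises along with the immunoproteasome. Psme1 read 0.43, 0.09, 0.32, 0.09 and 0.18 in AggE and 0.37, 0.65, 0.28 and 0.23 in Ctrl mice at 5d/24h, and 0.46, 0.45, 0.31, 0.53 and 0.20 against 0.29, 0.23, 0.34 and 0.71 at 10d/24h. At 5d/1.5wk it read 0.53, 0.20, 0.32, 0.16 and 0.31 against 0.50, 0.27, 0.39 and 0.67. At 10d/4wk it ran from 0.03 through 0.33 to 0.43 against -0.05, 0.34 and 0.92. The groups overlapped at every point, and the differences lay between -0.18 and 0.00.

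Psme2 read -0.07, -0.02, 0.00, -0.11 and -0.38 in AggE and -0.36, -0.08, -0.30 and 0.06 in Ctrl mice at 5d/24h. At 10d/24h it read -0.03, -0.30, -0.19, -0.31 and -0.36 against -0.31, -0.42, -0.04 and -0.22, and at 5d/1.5wk 0.09, -0.40, -0.09, -0.22 and 0.03 against -0.36, -0.01, -0.01 and -0.37. On this probe, the brightest, the groups overlapped at these 3 points, while the second probe was lower in AggE at 10d/24h (-0.24, SE 0.10, limma adjusted p = 1, nominal p of 0.05 or less). At 10d/4wk the AggE mice ran from -0.82 through -0.61 to -0.13 and the Ctrl mice from -0.50 through -0.22 to 0.05. The difference was -0.35 (SE 0.11, limma adjusted p = 0.0702). Against the 3 Ctrl mice of its slide AggE mouse 1 differed by -0.004, and without this mouse the difference was -0.44. As with Psmd12, the second probe of Psme2 did not share the difference of the whole comparison (0.07, SE 0.09, limma adjusted p = 0.752). This probe too was well above background on all 39 arrays.

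Agreement between probes was therefore described for the 15 genes with more than 1. Their probes had the same sign in 9 of 15 genes at 5d/24h, 6 at 10d/24h, 5 at 5d/1.5wk and 7 at 10d/4wk. The median range between the probes of a gene was 0.08, 0.11, 0.16 and 0.18 at these points, and the widest was 0.61, for Psmd12 at 5d/24h. Besides the second probes of Psmd12, Psmb8 and Psme2 named above, dimmer probes stood at a nominal p of 0.05 or less for Psmd9 at 5d/24h (-0.39) and, at 10d/4wk, for Psmd9 (0.23), Psme4 (0.33) and Psmc3ip (-0.48).

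The differences followed the brightness of the probe at 2 of the points. The 44 genes were split at their median Cy5 intensity of 324. At 10d/4wk, 6 of the 22 brighter and 17 of the 22 dimmer genes were higher in AggE, with medians of -0.12 and 0.09. Over all genes of the same 2 ranges of brightness the medians were -0.11 (1372 genes) and 0.02 (13061 genes). At 5d/24h, 11 of the 22 brighter and 18 of the 22 dimmer genes were higher, with medians of -0.02 and 0.11, beside -0.02 and -0.01 over all genes. At 10d/24h 7 and 10 were higher, and at 5d/1.5wk 14 and 12. The part of brightness in the values of single genes was not tested.

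**Figure D4:**
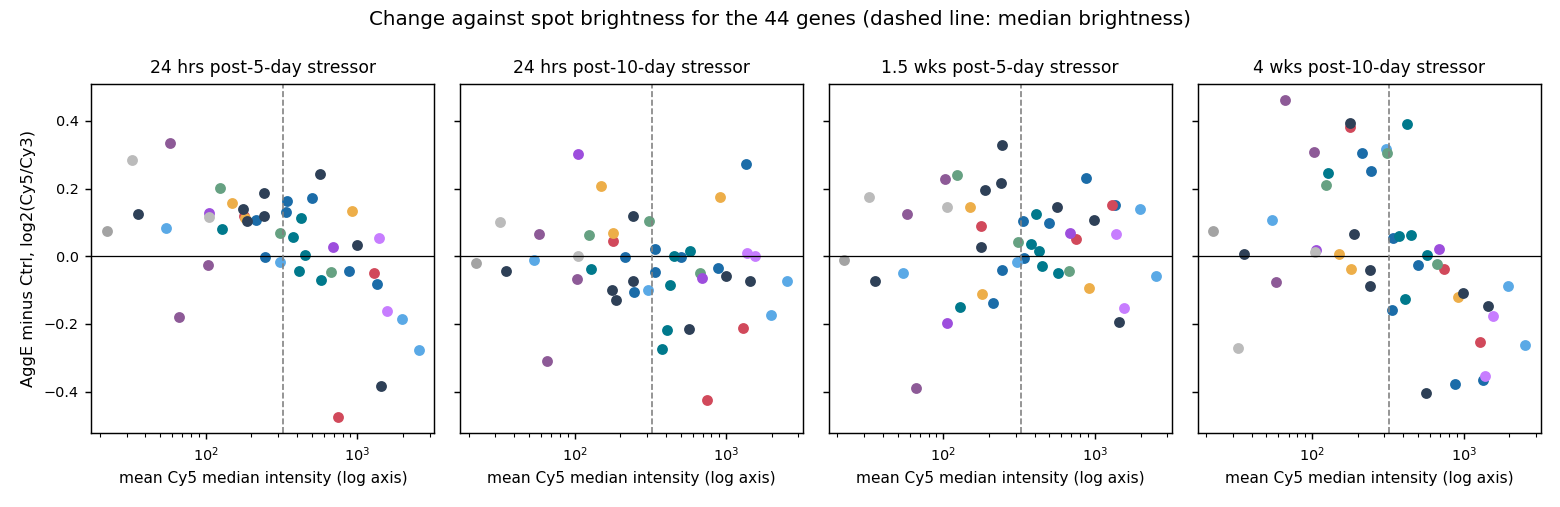
The AggE-minus-Ctrl difference in log2(Cy5/Cy3) (vertical axis) against the mean Cy5 median intensity (horizontal log axis) of the 44 genes at the 4 points, colored by place in the complex as in the plot of all differences. At 10d/4wk 6 of the 22 genes to the right of the dashed line (the median of 324) and 17 of the 22 to its left are above 0.

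Whether the change at 1 point differed from that at another was tested as a difference of changes. No gene of the 44 passed an adjusted p of 0.05 in any of the 3 tests (limma). The 5d/24h change less the 10d/24h change had 1 gene at a nominal p of 0.05 or less, beside 6.7% of all genes (0.0329% adjusted), and the 5d/24h change less the 5d/1.5wk change had 1 (7.96%, 0.0931% adjusted). The 10d/24h change less the 10d/4wk change had 6 (9.74%, 0.0767% adjusted), Psma6, Psma7, Psmb1, Psmd8, Psmd9 and Psme2. The 1 gene of the first test was Psmd12 (0.46, SE 0.18, limma adjusted p = 0.51), and that of the second was Psmb5. On the second probe of Psmd12 the changes of the first test were -0.36 and 0.06, in the opposite order.

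Variation among mice of the same group was described next. After the group means were removed, the median correlation over 39 arrays was 0.153 across 666 pairs of 37 members, leaving out the immunoproteasome, the genes named for a partner and those under 30 arrays above background. It was 0.0075 across all pairs of the 6640 genes detected as often. The highest pairs were Psmc2 with Psmd9 (0.824), Psmc6 with Psme4 (0.755) and Psmb2 with Psmc2 (0.752). AggE mouse 1 at 10d/4wk stood apart in Psmc2, Psmd9, Psmc6 and Psme4. These correlations can rest on that array, and none was computed without it. The immunoproteasome genes had a median of -0.01 with these 37 members, and 0.253, 0.245 and -0.106 among themselves. The pairs share arrays, slides and signal strength, and these values are a description.

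The last lists hold genes that serve the complex from outside it. Nfe2l1 (NRF1), which drives transcription of the subunit genes, was lower in AggE mice at 10d/4wk. It ran from -0.62 through a median of -0.42 to -0.32 in AggE and from -0.35 through 0.06 to 0.54 in Ctrl mice, where 1 Ctrl mouse lay among the AggE mice. The difference was -0.53 (SE 0.12, 0.691-fold, limma adjusted p = 0.017). It was -0.63 with slide as a fixed block, which sets AggE mouse 1 against the 3 Ctrl mice of its slide. With slide as a random block it was -0.57 (limma adjusted p = 0.0692). The difference passed in 11 of the 12 fits that each left out 1 mouse of the point. The exception was without AggE mouse 2 (limma adjusted p = 0.0539). At the other 3 points Nfe2l1 differed by 0.20, 0.01 and -0.16, with adjusted p-values of 0.522, 1 and 1. It was 1 of 9 genes of proteasome gene regulation and ERAD, of which 8 were lower at 10d/4wk, 3 of them at a nominal p of 0.05 or less and 1 at the adjusted threshold. Beside it, the 5 members with TGACNNNGC before their start differed by -0.04 (Psmb5), -0.25 (Psmb6), -0.13 (Psmc6), 0.46 (Psmd9) and -0.41 (Psmd12) at that point. Without AggE mouse 1 these were 0.04, -0.15, -0.30, 0.75 and -0.50 in the same order.

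Of 10 measured receptors and deubiquitinases of the proteasome, Rad23b, a shuttle for ubiquitinated proteins, was lower at 10d/4wk. It ran from -0.61 through -0.50 to -0.14 in AggE and from -0.61 through 0.10 to 0.41 in Ctrl mice. The difference was -0.48 (SE 0.13, limma adjusted p = 0.0358), and it passed in 4 of 12 fits without 1 mouse. It did not pass with slide as a random block (-0.40, limma adjusted p = 0.191). With slide as a fixed block, again AggE mouse 1 against the 3 Ctrl mice of its slide, it was -0.38. Ubqln4, another shuttle, was called lower at 5d/24h (adjusted p = 0.04), and so was Uba6, an activating enzyme of ubiquitin and the call among 5 ubiquitin and E1 genes (adjusted p = 0.0412). Neither probe was well above background on any of the 9 arrays of that point, so no fold is given for them. With slide as a random block the adjusted p was 0.48 (Ubqln4) and 0.348 (Uba6), and the calls were lost in 7 of 9 and 5 of 9 fits without 1 mouse. Another probe of Uba6 read higher at that point, at a nominal p of 0.05 or less. Of the 6 assembly and regulator genes outside the rule, 0 passed the adjusted threshold at any point (limma), with 1 lower at 10d/24h and 1 higher at 10d/4wk at a nominal p of 0.05 or less. Psmg1, a chaperone of the alpha ring, was the one that was lower (-0.28 at 10d/24h, limma adjusted p = 0.872).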

How the data were processed

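Liver RNA (Cy5) of each mouse was hybridized with Universal Mouse Reference RNA (Cy3) on an Agilent two-color mouse array, with no dye swap. Per the file headers, the authors scanned the arrays and extracted median foreground and background intensities with Feature Extraction 11.5.1.1, and per the same headers its log10 ratios of processed signals were written beside them. The log10 ratios deposited as the series' value table hold 0 where no ratio was given and served as an alternative. Groups were taken from the source labels. A description calls the AggE mice of the 5d/24h point 1d, and some titles of the 5d/1.5wk point carry a 10, which disagrees with their source labels. Whether mice of a group were independent batches of animals is not given in the sources used here.

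Median intensities were background-corrected (normexp, offset 50), loess-normalized within arrays with control spots at weight 0 and quantile-normalized between arrays in limma 3.58.1 (R 4.3.3). Outlier-flagged spots were set to missing, of which the 44 genes read here had none. One fit of all 8 groups with empirical Bayes moderation gave every comparison, with Benjamini-Hochberg adjustment over the 25903 probes with a RefSeq accession. Nominal p-values are those before this adjustment. The fit was tested on simulated data. Each gene was read from its brightest probe. Values by mouse are given for the catalytic, immunoproteasome and PA28 alpha and beta genes, for called genes and for the 4 smallest p-values of each comparison, and other genes are given by counts. The genes, lists and this rule were chosen with earlier results of these data known. The number of arrays limits the precision.

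Replicate numbers did not pair mice, and 11 slides and 2 scan days were recorded from the headers. Promoters were the 250 bases before the start in the RefSeq table (GRCm38.p6). Alternatives covered background correction, normalization, signal, probe choice, filter, weights, blocks and single mice left out.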

Additional observations from a re-analysis of the deposited data

Results flagged for a closer look

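All 44 genes were searched in each of the 8 groups for a mouse whose gap to the nearest other mouse was large for the range of its group (Dixon's test at its 95% critical value). Of 352 sets of values 26 held one, where chance alone gives about 1 in 20, and the genes of a mouse share an array. Values are log2(Cy5/Cy3).

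AggE mouse 1 at 10d/4wk held 12 of the 26. It was the lowest of its group in Psmb6 (-1.15), Psmc2 (-2.39), Psmc5 (-0.50), Psmd2 (-1.18), Psmd4 (-1.27), Psmd8 (-0.82) and Psmd9 (-1.25), and the highest in Psma2 (-0.56), Psma4 (0.59), Psma7 (-0.61), Psmc6 (-0.88) and Psme4 (0.94). Its array was the AggE array on a slide with Ctrl arrays of the point, and the part of the slide was not tested. At the same point Ctrl mouse 1 stood apart in Psmb10 (0.11) and Psmd6 (-0.59) and Ctrl mouse 5 in Psme3ip1 (0.22).

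At 5d/1.5wk these were AggE mouse 2 in Psmb7 (-1.41), Psmc1 (-0.67) and Psme3ip1 (-0.077), Ctrl mouse 4 in Psmc1 (-0.50) and Psmc3 (-1.08), and Ctrl mouse 3 in Psmd4 (-0.9998). At 10d/24h they were Ctrl mouse 4 in Psmb7 (-0.46) and Psmd9 (0.44), Ctrl mouse 2 in Psmd13 (-0.12) and AggE mouse 2 in Psmd12 (-1.29). At 5d/24h Ctrl mouse 1 stood apart in Psma7 (-1.07).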

How the results depend on the processing

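The alternatives were followed gene by gene for Psmb5 (both 24-hr points), Psmd10 (5d/24h), and Psmd12 and Psme2 (10d/4wk). The brightest probes of these kept their direction, but on the slide with both groups Psmd12 was only -0.08 and Psme2 -0.004. Other genes did not keep theirs, as 5 of the 16 at a nominal p of 0.05 or less at 10d/4wk had the opposite sign on that slide. The medians over the 44 genes lay near 0. They kept their sign at both 24-hr points but not at the later ones. That of 5d/1.5wk (0.05) was -0.01 with no normalization between arrays, Aquantile or slide as a fixed block, and that of 10d/4wk (0.00) lay between -0.08 and 0.04. Apart from fits without single mice, 200 counts and medians of the list stayed close to those reported and 41 moved. For these 4 genes, 60 values stayed on the same side of the adjusted threshold, 10 came to pass it and 11 no longer did.

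At 5d/24h, genes called after adjustment went from 0 to 1 with the Cy5 channel alone (Psmb5), 2 with array weights (Psmb5 and Psmd10), 1 with the replicate block (Psmd10) and 1 with the array's share of detected probes as a covariate (Psmd10). Nominal counts there went from 3 to 7 (Cy5 alone), 6 (array weights), 5 (only the groups compared) and 1 (slide as a random block). At 10d/24h they went from 2 to 5, 6 and 1 under the last 3 of these. At 5d/1.5wk they went from 1 to 4 (no background subtraction, offset 16 and the deposited ratios), 6 (offset 0), 5 (processed signals), 9 (Cy5 alone), 3 (array weights and only the groups compared) and 0 (no normalization between arrays, Aquantile and slide as a random block).

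At 10d/4wk the 1 adjusted call went to 0 with no background subtraction, offset 0 or 16, processed signals, Cy5 alone, the deposited ratios, only the groups compared, slide as a random block or the mean over probes, to 2 with the detection covariate, 7 with array weights and 8 with no normalization between arrays or Aquantile, which leaves log ratios as they are. With slide as a fixed block the fit rests on AggE mouse 1 against the 3 Ctrl mice of its slide, and the median over the 44 genes was -0.084. Nominal counts went from 16 to 10 with slide as a random block. After the data were seen, the point was refitted with the 3 Ctrl mice of the slide shared with an AggE mouse, which gave 5 adjusted calls, and with the 3 other Ctrl mice, which gave 0 adjusted and 7 nominal calls. The test of the 10d/24h change less the 10d/4wk change gave 1 adjusted call with array weights (Psmd9).

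Leaving out 1 mouse at a time gave 0 to 1 adjusted calls, 2 to 5 nominal calls and medians of 0.05 to 0.10 at 5d/24h. The ranges were 0 to 0, 1 to 2 and -0.06 to -0.01 at 10d/24h, 0 to 0, 0 to 4 and 0.01 to 0.10 at 5d/1.5wk, and 0 to 8, 9 to 15 and -0.04 to 0.02 at 10d/4wk. The differences of changes gave 0 to 0, 0 to 0 and 0 to 1. Psmd12 at 10d/4wk ran from -0.50 to -0.35 with adjusted p-values from 0.00229 to 0.0939, above 0.05 without AggE mouse 2, 3, 4 or 5 or Ctrl mouse 3, 4 or 5.

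Mice with the same replicate number did not deviate together (18 pairs, correlations from -0.407 to 0.51, 5 of them above 0.1). With the replicate block, Psmd12 kept its call at 10d/4wk (-0.41, adjusted p = 0.0476), and 16 genes passed at a nominal level. Slide as a fixed block could be fitted for 5d/1.5wk and 10d/4wk, and scan day for 5d/1.5wk. At each of these points the fixed slide block rests on 1 slide with 1 AggE and 3 Ctrl arrays. Dim probes limit Psmb11, Psmc3ip and Psmd13 most, and a filter on detection removed Psmb11 and Psmc3ip.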
